A study of Rattus norvegicus with 18 samples.

Results

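The transcripts described here were higher in males than in females in mesenteric resistance artery perivascular adipose tissue (MRPVAT), on the control diet (CD) as well as on the high-fat diet (HFD). They were 163 of the 32883 Ensembl rat gene IDs in the table, or 0.496%. A gene ID was taken when the male mean of log2(FPKM + 0.5) lay at least 1.5 above the female mean on each diet, and when the lowest of 9 males was above the highest of 7 females. FPKM are fragments per kilobase of gene and library depth, a level per gene length. IDs under 0.1 FPKM in all 7 females were left out. The IDs were thus chosen by the sex difference in these rats, which is given as a description and not as a test.

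All animals were Dahl S rats, a salt-sensitive strain without a transgene or drug, fed the CD or the HFD for 24 weeks from a young age. At that time HFD rats of both sexes were hypertensive and CD rats normotensive. A single rat gave the MRPVAT RNA of each library. The 16 rats used by the rule were 4 HFD males, 5 CD males, 3 HFD females and 4 CD females. A further 2 HFD females, G73FHF3 and G75FHF5, were left out of the study's own comparisons as outliers, took no part in the choice of IDs and are shown separately. The study's supplement calls G75FHF5 clearly an outlier. It adds that G73FHF3 was removed because the female diet comparison called no gene with it. The code of a rat gives its group number, sex, diet and animal number. The code and title gave the sex and diet of a rat here, because the sex or treatment tag goes against them in 13 of the 18 rats. No group held both sexes (males 74 and 76, females 73 and 75), and the effects of sex and of group number therefore cannot be told apart.

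PVAT is the fat that surrounds blood vessels. It holds adipocytes together with stromal and immune cells and nerve endings, and it releases factors that act on the tone of the vessel. Adipose depots are known to differ between the sexes in how they store and release lipid, and in their immune cells. The table gives Ensembl IDs alone, and neither the table nor the reference used here pairs them with symbols. The IDs are therefore described by level and pattern, without names, functions or positions in the genome. For the same reason the markers of adipocytes and of the stromal vascular cells named in the labels could not be checked. In bulk tissue, fewer cells of a type and less RNA per cell cannot be told apart.

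Reads counted in genes, recovered from the steps between FPKM values, ranged from 14547762 in G75FHF5 to 55148275 in G75FC4, with a median of 26681829. The number of IDs at 0.5 FPKM or more ranged from 11865 in G75FC5 and 12798 in G75FC4, the 2 CD females of group 75, to 14733 in G75FHF5. G75FHF5 stood apart, with a median Pearson correlation of 0.698 to the 16 rats across 15128 IDs, against 0.851 to 0.957 among the 16. G73FHF3 stood at 0.958, but the library with this code goes against its sex code for most of the IDs described here.

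The 163 IDs were mostly well expressed. Their mean level in males had a median of 48.5 FPKM and a range of 1.28 to 9263 FPKM, and 52 of them (31.9%) reached 100 FPKM, against 6.52% of the 15128 IDs tested over the 16 rats. The rule asked for a set male excess on a log scale with an added constant, which IDs very low in males could not reach. The contrast in level with all IDs is therefore in part built into the choice of IDs, and nothing is read from it. In females the mean level had a median of 8.85 FPKM, and 24 IDs were under 1 FPKM. Their gene lengths had a median of 2041 bases, beside 1942 bases for all IDs tested.

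Because many of these IDs were abundant, they took up a visible part of each library. In males they held 5.47% to 9.79% of the reads counted in genes, 7.97% ± 2.01 (SD, n = 4) on the HFD and 7.92% ± 1.45 (SD, n = 5) on the CD. In females they held 0.828% to 2.43%, 0.917% ± 0.129 (SD, n = 3) on the HFD and 1.78% ± 0.737 (SD, n = 4) on the CD. These shares follow from the choice of IDs and carry no test.

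The sex difference of the 163 IDs had a median of 2.49 on the log2(FPKM + 0.5) scale on the HFD (1.52 to 6.82), while the CD median was 2.14 (1.503 to 5.56). On this scale the change of low IDs is understated. All IDs tested had medians of -0.26 on the HFD (14302 IDs) and -0.02 on the CD (14195 IDs). The HFD difference was the larger one in 122 of the 163 IDs and the CD difference in 41. The smaller of these differences was at least 2 in 93 IDs, at least 3 in 18 and at least 4 in 2. With limma, the linear model fit used throughout, 5.19% of all IDs tested on the HFD and 2.66% on the CD passed as higher in males, which asks for a log2 fold change over 1 and a Benjamini-Hochberg adjusted p under 0.05. By construction nearly all of the 163 were among them (163 on the HFD and 153 on the CD), and nothing is read from that.

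**Figure D1:**
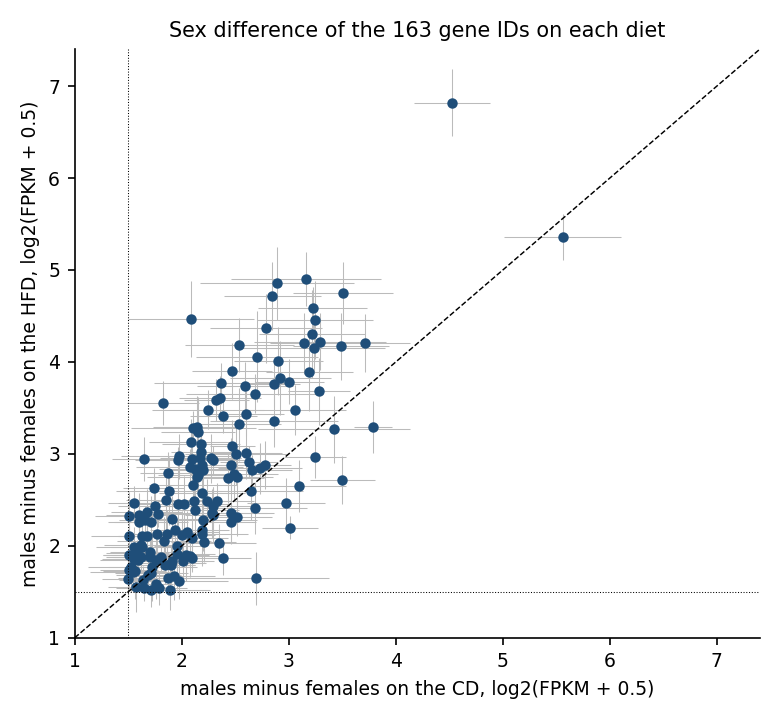
Male minus female difference in mean log2(FPKM + 0.5) of each of the 163 gene IDs on the CD (x axis) and the HFD (y axis), with limma standard errors as grey bars, the threshold of 1.5 as dotted lines and equality as a dashed line. Most points (122 of 163) lie above the dashed line, and 2 IDs stand apart at the upper right.

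At the threshold the list has no natural edge. The 3 IDs just inside had a smaller difference of 1.503, 1.503 and 1.504, and the 3 IDs just outside, which met the gap between the sexes, had 1.498, 1.498 and 1.491. Another 81 IDs had both differences but overlapped between the sexes in at least 1 rat. Among the 163, the distance between the lowest male and the highest female had a median of 0.64 and a range of 0.000728 to 2.86 on the log2 scale, and it was over 1 in 42.

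ENSRNOG00000010478 had the largest smaller difference of the list. Its FPKM in HFD males were 192 in G74MHF2, 341 in G74MHF3, 300.4 in G76MHF1 and 239 in G76MHF2. In CD males they were 437 in G74MC4, 372 in G74MC5, 1710 in G76MC3, 440.2 in G76MC4 and 561 in G76MC5. All 9 males were above every female, and the value of G76MC3 was far above those of the other males. In HFD females its FPKM were 6.41 in G73FHF1, 4.06 in G73FHF2 and 7.78 in G75FHF1. In CD females they were 6.27 in G73FC3, 6.35 in G73FC4, 29.5 in G75FC4 and 16.7 in G75FC5. The values of the IDs below follow the same order of rats. The difference between the sexes was 5.36 ± 0.25 (SE) on the HFD and 5.56 ± 0.55 on the CD in log2(FPKM + 0.5). Between the diets, all HFD males were below all CD males, with a log2 difference of -1.16 ± 0.40 that did not pass the test (limma, adjusted p = 0.060).

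ENSRNOG00000045797 came next. Its FPKM were 259, 563, 461 and 280.1 in the HFD males and 273, 227, 129, 253 and 166 in the CD males, with the lowest in G76MC3. HFD females had 1.82, 2.22 and 5.12 FPKM. CD females had 4.59, 7.18, 17.4 and 8.12 FPKM, with the highest in G75FC4. The sexes were far apart, by 6.82 ± 0.36 (SE) on the HFD and 4.52 ± 0.35 on the CD in log2(FPKM + 0.5). Its HFD minus CD difference was 0.87 ± 0.28 in males, under the fold change asked (limma, adjusted p = 0.048), and -1.42 ± 0.51 in females (adjusted p = 0.48). The difference between these diet effects was 2.30 ± 0.56 and did not pass over all IDs (limma interaction, adjusted p = 0.99).

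The 8 IDs that followed had smaller differences of 3.24 to 3.71. They ranged from IDs that were near 0 in females, such as the third, with 6.77 to 20.6 FPKM in males (median 14.3) and 0 to 1.46 FPKM in females (median 0.304), to abundant ones. The fourth had 644 to 1293 FPKM in males (median 1053) and 18.1 to 194 FPKM in females (median 55.9). The fifth had 279 to 933 FPKM in males (median 643) and 23.4 to 101 FPKM in females (median 46.8). Low female values were not the general case. Only 17 of the 163 IDs fell under 0.1 FPKM in some female, and 10 had no read in some female.

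ENSRNOG00000010079 had the highest mean level of the list. It was chosen for that after its values were seen, as were the further IDs printed below. Its FPKM were 6471, 15187, 14166 and 9978 in the HFD males and 9322, 7933, 4312, 7626 and 8376 in the CD males. Females had 661, 610.1 and 948 FPKM on the HFD and 654, 1560, 1950 and 1486 FPKM on the CD. No female reached the lowest male, G76MC3.

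**Figure D2:**
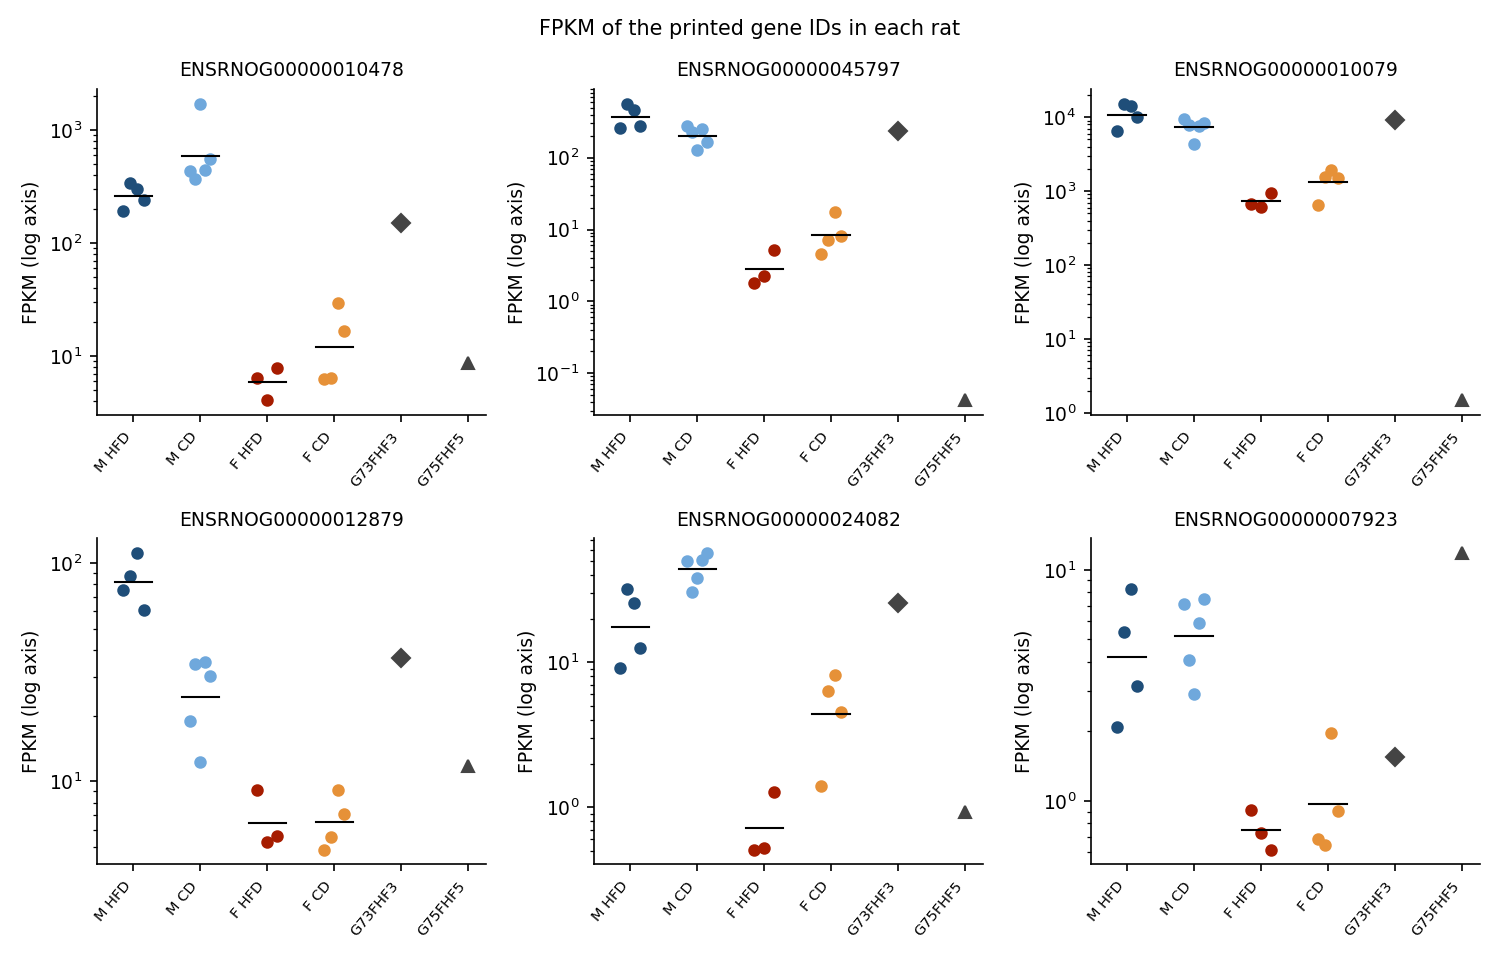
FPKM (log axis) of the 6 gene IDs printed in the text, 1 point per rat, in males on the HFD (4) and CD (5), females on the HFD (3) and CD (4), and in G73FHF3 and G75FHF5. Horizontal bars are group means of log2(FPKM + 0.5), transformed back to FPKM. In all 6 panels every male lies above every female, while G73FHF3 lies among or near the males in all but the last.

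To see how the rats varied, each value was given a position, 0 at the mean of the 7 females and 1 at the mean of the 9 males for its own ID. The median position over the 163 IDs was 0.762 to 1.11 in males and -0.144 to 0.217 in females. In males the diets differed by less than the spread between rats. There the mean of the medians was 0.993 ± 0.137 (SD, n = 4) on the HFD and 1.01 ± 0.140 (SD, n = 5) on the CD. In females it was -0.096 ± 0.063 (SD, n = 3) on the HFD and 0.075 ± 0.156 (SD, n = 4) on the CD.

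The edge of the gap was set by few rats. G76MC3, a CD male with a median position of 0.762, was the lowest male for 84 of the 163 IDs (51.5%), although it was the lowest male for 23.8% of all IDs tested. G74MHF2, an HFD male at 0.807, was the lowest for 59. These 2 rats gave the lowest male value for 143 of the 163 IDs. In females, G73FC4 was the highest for 54 IDs, G75FC4 for 49 and G75FC5 for 45, and the 3 HFD females together for 10. G75FC4 and G75FC5 were the highest female for 57.7% of the 163 IDs and for 31.5% of all IDs tested. They also had the fewest IDs at 0.5 FPKM of the females, and the part of detection in their high values was not tested.

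**Figure D3:**
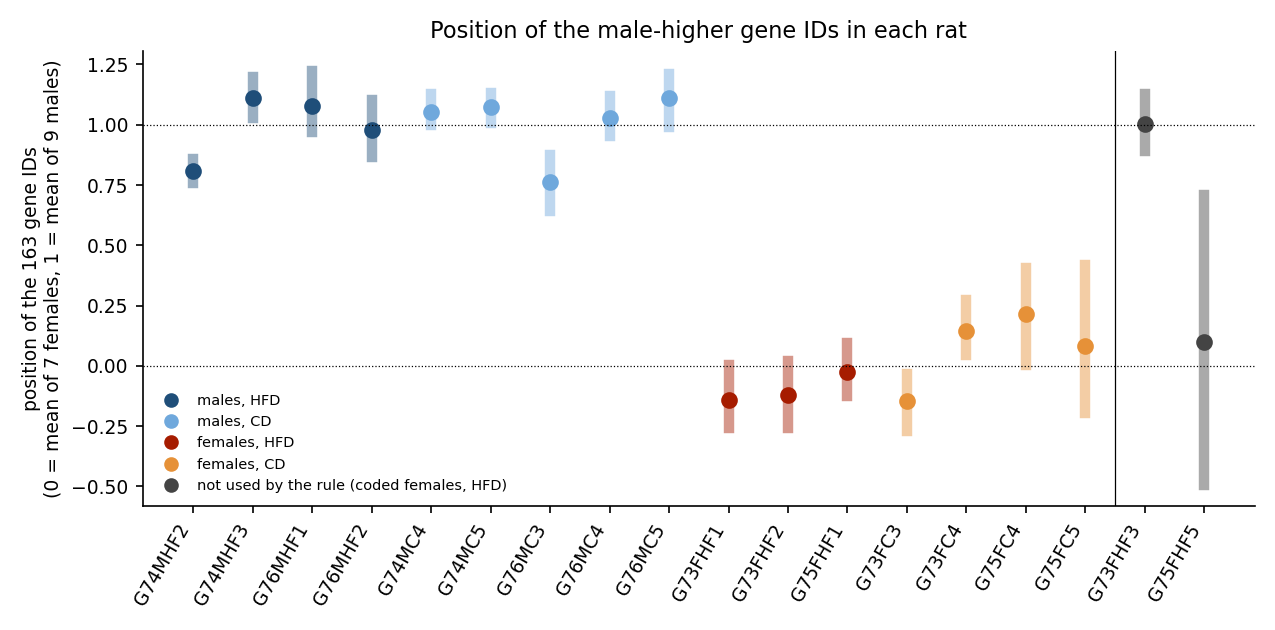
Median (point) and middle 50% (bar) of the position of the 163 gene IDs in each of the 18 rats, with 0 at the mean of the 7 females and 1 at the mean of the 9 males used by the rule. The males lie between 0.762 and 1.11 and the females between -0.144 and 0.217, while G73FHF3 lies at 1.00 and G75FHF5 spreads from below 0 to above 0.5.

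The rule set no condition on the diet difference within each sex, but it used the same values of the same rats. In males, 7 of the 163 IDs (4.29%) differed between the HFD and the CD by the same thresholds, in either direction. Of all 14265 IDs tested, 6.26% did. On the HFD 6 were higher (3.68%, against 5.99% of all IDs) and 1 was lower (0.613%, against 0.273%). At an unadjusted p under 0.05, 21 were higher and 29 lower, beside 24.9% and 14.6% of all IDs. The median HFD minus CD difference of the 163 was -0.05, beside 0.01 for all IDs. All HFD males were above all CD males in 3 of the 163 IDs, against 14.4% of all IDs tested over the 16 rats. In the higher direction these shares were below those of all IDs. In the lower direction the limma shares were above them, while the share without overlap was below. Without G74MHF2 the share that passed as higher was 9.82%, against 7.5% of all IDs. The order of the shares thus depended on the direction, on the measure and on a single rat, and nothing is read from it.

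The 6 IDs that rose on the HFD in males did so by 1.00 to 1.72 on the log2 scale, with standard errors of 0.23 to 0.35 (limma, adjusted p = 0.019 to 0.045). ENSRNOG00000012879 rose most. Its FPKM were 75.3, 86.8, 111 and 60.7 in the HFD males and 18.9, 34.4, 12.3, 35.1 and 30.4 in the CD males, so that the diets did not overlap. The log2 difference was 1.72 ± 0.31 (SE). In females it had 9.12, 5.26 and 5.62 FPKM on the HFD and 4.88, 5.55, 9.17 and 7.12 FPKM on the CD, with a log2 difference of -0.01 ± 0.34. That was the lowest female difference among the 5 of the 6 IDs tested in females, where the highest was 0.78. HFD and CD males did not overlap in 2 of the 6 IDs, which are among those 3 of the 163. In the other 4, G74MHF2 was the HFD male that lay within the CD range.

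ENSRNOG00000024082 was the only ID that fell on the HFD in males. Its FPKM were 9.18, 31.9, 25.7 and 12.6 in the HFD males and 49.98, 30.8, 38.2, 50.8 and 56.8 in the CD males, overlapping in G74MHF3 and G74MC5. The log2 difference was -1.31 ± 0.34 (SE; limma, adjusted p = 0.029). In females it had 0.509, 0.519 and 1.27 FPKM on the HFD and 1.41, 6.35, 8.21 and 4.57 FPKM on the CD. All HFD females were below all CD females, with a log2 difference of -2.01 ± 0.55 that did not pass over all IDs (limma, adjusted p = 0.48).

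The count in males depended on single rats, as it did over all IDs. None of the 163 passed without G74MHF3 (beside 0.0212% of all IDs), without G76MHF1 (0%) or without G76MHF2 (0%). Without G76MC5 1 passed, beside 0.784% of all IDs, and without G76MC4 3 did, beside 2.25%. Without G74MHF2, 16 were higher and 1 was lower, beside 7.5% and 0.505% of all IDs.

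In females, 0 of the 150 IDs that passed the filter on low values differed with diet by limma, as did 0% of the 14186 IDs tested, and limma-voom on the recovered reads called 0 as well. The other 13 IDs were too low in too many females to be tested. At an unadjusted p under 0.05, 29 of the 150 (19.3%) were lower and 0 were higher on the HFD, beside 1.27% lower and 2.38% higher among all IDs. The median HFD minus CD difference was -0.40 (median SE 0.42), while all IDs had a median of 0.32. The difference was below 0 in 72.0% of the 150 and in 32.4% of all IDs. Over all 163 without a filter, the median was -0.35 and the CD mean was the higher one in 118. The rule asked for a female mean at least 1.5 below that of the males on each diet, without favour to either diet. It used these same female values, however. How far the contrast with all IDs comes from the choice of IDs was not tested, and nothing is read from it.

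Scaling by the median of ratios removed the shift of all IDs, to 0.02, and moved the median of the 150 to -0.74, with 40 lower at an unadjusted p under 0.05 beside 2.42% of all IDs. Without G75FC4 and G75FC5 the median was -0.20, beside 0.04 for all IDs. In that fit 6 of 145 were lower at an unadjusted p under 0.05, beside 1.26% of all IDs. With G73FHF3 among the HFD females the median turned to 0.19, beside 0.27 for all IDs. The number lower at an unadjusted p under 0.05 was 3 without G73FHF2 (beside 0.229% of all IDs), 4 without G73FHF1 (0.616%), 8 without G75FC4 (0.362%), 17 without G75FC5 (0.796%) and 68 without G73FC3 (4.17%).

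**Figure D4:**
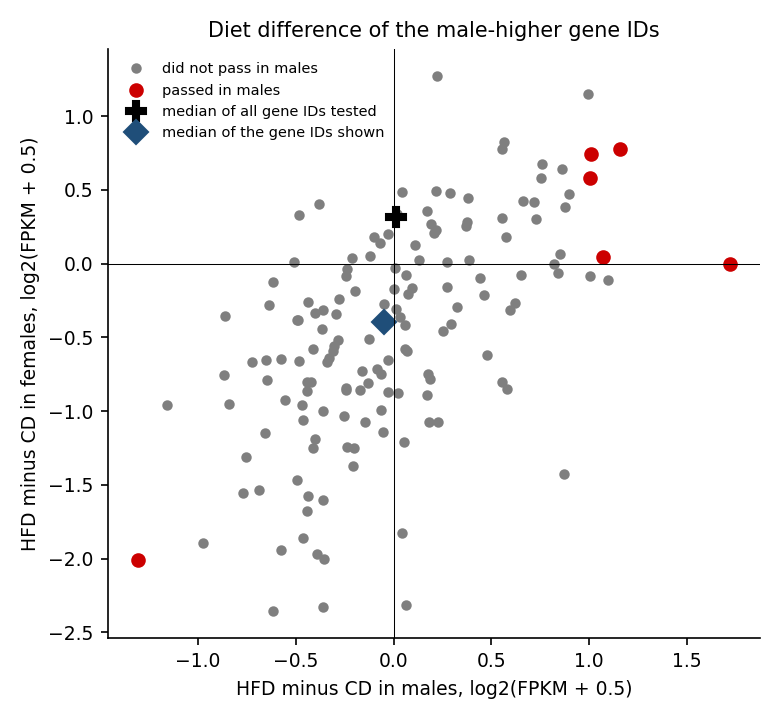
HFD minus CD difference in log2(FPKM + 0.5) in males (x axis) and females (y axis) of the 150 gene IDs tested in both sexes. Red points passed the test in males, the diamond is the median of the IDs shown and the cross the median of all IDs tested, at 0.01 in males and 0.32 in females. Most IDs lie below 0 on the female axis and on both sides of 0 on the male axis.

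Whether the diet effect itself differed between the sexes was tested as an interaction over the 16 rats. None of the 163 IDs passed with limma, as did 0% of all 15128, and limma-voom called 0. At an unadjusted p under 0.05, 17 (10.4%) had a higher diet effect in males and 1 (0.613%) a lower one, beside 0.668% and 3.27% of all IDs. The median of the interaction was 0.38 for the 163 and -0.20 for all IDs. For each ID the interaction is the HFD sex difference minus the CD sex difference, the values on which the IDs were chosen, and 13 of the 163 passed the filter of this fit without passing it in females. These counts are therefore a description, and nothing is read from them.

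Group number was compared within each sex with diet as a covariate. In males, 0 of the 163 IDs differed between groups 76 and 74 with limma or limma-voom, as did 0% of all IDs. At an unadjusted p under 0.05, 2 were higher and 0 lower, beside 0.946% and 0.974% of all IDs. In females, 0 of 150 differed between groups 75 and 73 with limma or limma-voom, as did 0% of all IDs. At an unadjusted p under 0.05, however, 40 (26.7%) were higher in group 75 and 3 (2%) lower, while among all IDs 3.31% were higher and 18.8% lower.

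The count of 0 that passed rested on G75FHF1, the only HFD female of group 75 in the fit. Without it, 37 of 149 IDs passed as higher and 15 as lower, beside 4.96% and 31.9% of all IDs. At an unadjusted p under 0.05, 48 were then higher and 22 lower, beside 1970 and 5568 of all 13939 IDs. Among the CD females alone, 2 rats against 2, 31 of 143 passed as higher (21.7%) and 9 as lower (6.29%), beside 4.58% and 24.5% of all IDs. Over all 163, group 75 had a median of 0.39 above group 73 among the CD females, while all IDs had a median of -0.45. The 2 group 75 rats were G75FC4 and G75FC5, which had the fewest IDs at 0.5 FPKM, and the part of that in the result was not tested. The title of G75FC5 gives group 73. With the number of the title, 0 of 150 passed, and at an unadjusted p under 0.05 4 were higher and 0 lower, beside 0.211% and 0.79% of all IDs.

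G73FHF3, coded as an HFD female, had male levels of these IDs. It was at or above the lowest male for 149 of the 163 IDs (91.4%), between the sexes for 13 and at or below the highest female for 1. Its median position was 1.00, with a middle range of 0.891 to 1.13, and it was above the highest male for 19 IDs. The 163 IDs held 7.64% of its reads, against at most 2.43% in the 7 females used by the rule. It had 152 FPKM of ENSRNOG00000010478, below all males and above all females, 232 FPKM of ENSRNOG00000045797, 9145 FPKM of ENSRNOG00000010079, 36.7 FPKM of ENSRNOG00000012879 and 25.9 FPKM of ENSRNOG00000024082. The single exception was ENSRNOG00000007923. It had 1.55 FPKM in G73FHF3, 2.08 to 8.23 FPKM in males (median 5.39) and 0.616 to 1.96 FPKM in females (median 0.725).

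G73FHF3 was also set against the HFD means of the sexes in the rest of the table. It was nearer to the male mean for 162 of the 163 IDs and for 67.6% of all 14965 other IDs tested. Among these others, it was so for 87.8% of 237 IDs at least 1.5 higher in HFD males. For 169 IDs at least 1.5 higher in HFD females it was 58.6%. The 163 IDs were chosen for sex means far apart, which most other IDs lack, so the shares cannot be compared directly. In G75FHF5 the shares were 31.3% of the 163 IDs, 59.4% of the others, 34.2% of the 237 and 81.7% of the 169. When the rule was mirrored, 8 IDs were higher in females on both diets. G73FHF3 was at or below the highest male for 4 of them and at or above the lowest female for 2. The IDs seen almost only in 1 sex were mixed in this rat. The 6 IDs left out of the list because all 7 females were under 0.1 FPKM had 0.539 to 79.0 FPKM in males. In G73FHF3, 4 of them were at or under 0.1 FPKM, among them the one that reached 79.0 FPKM in a male. The others had 1.35 FPKM (1.77 to 18.4 FPKM in males) and 1.97 FPKM (0.539 to 1.94 FPKM in males). The single ID with at least 0.5 FPKM in all 7 females and under 0.1 FPKM in all 9 males had 14.0 FPKM in G73FHF3, within the female range of 0.767 to 35.2 FPKM. G73FHF3 is 1 rat, the title of its sample gives group 75 where the code gives 73, and no test was made. Whether this library carries a wrong label or holds mixed RNA was not tested, so its values are those of the library coded G73FHF3 and may not be those of an HFD female.

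With G73FHF3 counted among the HFD females, the median sex difference of the 163 IDs on the HFD was 1.83 instead of 2.49, and limma called 0 of them. Of all 14431 IDs tested, 16 passed as higher in males, while 742 of 14302 did without this rat. The loss of calls was thus not particular to the 163 IDs. With this rat, the rule itself found 12 IDs.

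G75FHF5 was scattered instead. It was at or above the lowest male for 45 of the 163 IDs (27.6%), between the sexes for 21 and at or below the highest female for 97 (59.5%). It fell below the lowest female for 54 and rose above the highest male for 19. Its median position was 0.097, with a middle range of -0.496 to 0.708. The 97 IDs at female level had a median male mean of 87.0 FPKM and the 45 at male level one of 16.3 FPKM.

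Several of the most abundant IDs were nearly missing in G75FHF5. ENSRNOG00000010079, with 4312 FPKM or more in every male and 610.1 FPKM or more in every female used by the rule, had 1.47 FPKM in it. ENSRNOG00000045797 had 0.042 FPKM and ENSRNOG00000024082 had 0.923 FPKM. ENSRNOG00000007923 was at 11.8 FPKM, above every male. No read was counted for 8 of the 163 IDs, and 28 were under 0.5 FPKM. In this library, the shallowest of the 18, the male-higher IDs matched neither sex throughout.

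**Figure D5:**
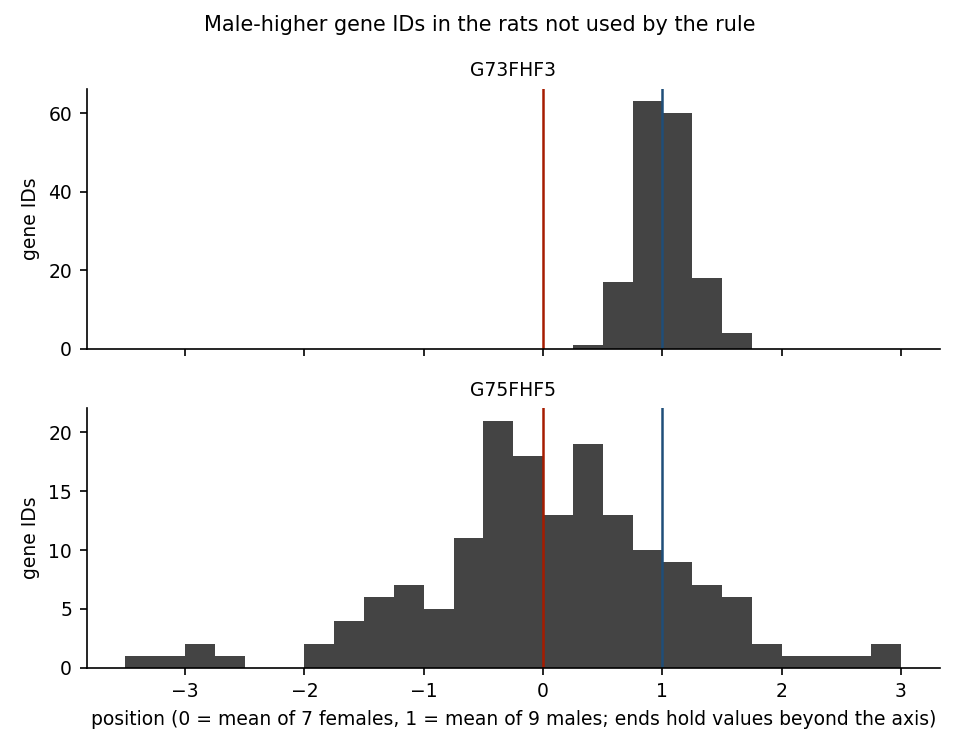
Number of the 163 gene IDs (y axis) by position (x axis, 0 at the mean of the 7 females and 1 at the mean of the 9 males, marked by lines) in G73FHF3 and G75FHF5, which the rule did not use. G73FHF3 gathers around 1.00, while G75FHF5 spreads over both sexes with a median of 0.097.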

How the data were processed

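RNA of MRPVAT from 18 Dahl S rats after 24 weeks on diet was sequenced. Paired-end reads were mapped with STAR 2.5 and counted with HTSeq 0.6.1 by the authors, who deposited FPKM per Ensembl gene ID. For the build, the annotation and the FPKM formula, nothing is given in the sources used here. Whole reads were recovered for 99.9% of the 22851 IDs above 0 (within 1e-06 reads plus 3e-08 of the value), a step tested on simulated data. Their number limits the precision of low values.

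Values were tested as log2(FPKM + 0.5) with limma 3.58.1 (R 4.3.3), two-sided, with a variance trend, for IDs that reached 0.5 FPKM in 3 or more rats of the comparison. Benjamini-Hochberg adjustment covered all of these IDs, and the interaction was called without a fold change limit. The p-values measure the spread between rats, each sequenced once. The fits were tested on simulated data. Limma-voom on recovered reads, fits on 1 diet and the sex comparison with other scalings or with the rats left out were chosen after seeing the data. Tables and plots used Python 3.11.15, pandas 2.3.3 and matplotlib 3.10.9.

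The IDs, lists and tests were chosen with earlier results of these data known. The plan named genes by symbol and held gene lists and markers, none of which could be matched to the IDs. Without a symbol, the rule allowed 2 IDs, those with the largest smaller difference. The other 4 printed were singled out after their values were seen. No sequence was matched for the same reason.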

Additional observations from a re-analysis of the deposited data

Results flagged for a closer look

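In groups of 4 or 5 rats, the highest or lowest value was set against the rest by Dixon's ratio, the gap to the nearest rat over the range, for the median position, the share of reads and the 6 printed IDs. Of 32 groups of values, 10 had a rat past the 95% critical value. Chance gives about 1 in 20 in independent groups, but these groups share their rats, 4 of the IDs were singled out after their values were seen, and 8 of the 10 came from the HFD females with the 2 outlier rats added back. The number of rats past the value is therefore not set against chance. Among the 5 CD males, G76MC3 was low in median position (0.762) and high in ENSRNOG00000010478 (1710 FPKM).

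Among all 5 HFD females, G73FHF3 was high in median position (1.00), in the share of reads (7.64%) and in 5 of the printed IDs. These were ENSRNOG00000010478 (152 FPKM), ENSRNOG00000045797 (232 FPKM), ENSRNOG00000010079 (9145 FPKM), ENSRNOG00000012879 (36.7 FPKM) and ENSRNOG00000024082 (25.9 FPKM). For ENSRNOG00000007923 the rat apart was G75FHF5 (11.8 FPKM).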

How the results depend on the processing

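The number of IDs that met the rule was 145 to 198 with other pseudocounts or scalings, 144 to 202 when each rat was left out and 244 when no gap was asked. It was 12 with G73FHF3 and 9 with G73FHF3 and G75FHF5 among the females, 255 without G75FC4 and G75FC5, 290 with a difference of 1 and 93 with a difference of 2 asked on each diet. With G73FHF3, or with both rats, the median sex difference on the HFD was 1.83 or 1.89. The 7 IDs that differed with diet in males became 3 without a filter on low values, where 416 of all 21318 IDs were higher and 21 lower. With all 4 groups in 1 fit they became 0, as did the count over all 15128 IDs. When each rat was left out, they became 0 to 17. The cause was not tested. With a replicate block on the group number, 5 differed in males (3 higher, 2 lower) and 0 in females. Over all IDs, 662 were higher and 34 lower of 14265 in males, and 0 of 14186 differed in females. Replicate numbers were not used as pairs, since they do not mark shared animals. Median-of-ratios scaling gave 3 higher and 2 lower in males, beside 648 and 53 of all 14265 IDs. Quantile normalization gave 4 and 4, beside 487 and 100. Between female groups, 0 became 40 in the CD females alone, and 0 to 52 when each rat was left out. The counts for female diet, male groups and the interaction stayed at 0 in every fit run, and 0 calls do not show that values were equal. The count of IDs at or above the lowest male was 149 to 151 in G73FHF3 and 45 to 46 in G75FHF5 with other scalings. At or above the middle between the sex means, it was 162 in G73FHF3 and 52 in G75FHF5. Depth limits the lowest IDs, with as little as 1 read in some male.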
